A study of Homo sapiens with 8 samples.

Results

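Total RNA of HEK293 cells transfected with an siRNA against AUF1 was compared with every other library of the experiment, 1 library against 7. HEK293 cells are a human embryonic kidney line in long use. All 8 libraries came from transfected HEK293 cells without crosslinking or immunoprecipitation, and no untransfected library was included. It was chosen by its treatment label. The 7 others were from cells given a control siRNA, an empty vector, 1 of the Flag-tagged AUF1 isoforms p37, p40, p42 and p45, or these 4 isoforms together. The passage number, the time after transfection and the siRNA sequence were not given in the sources used here. Each treatment had 1 library, so the differences have no replicate check, and no p-value across genes was computed. The 7 comparison libraries differ in treatment, and their range is no replicate error.

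AUF1, also called hnRNP D, is the product of HNRNPD. It binds AU-rich and U-rich stretches of mRNA, many of them in 3′ untranslated regions, and is best known for promoting the decay of such mRNAs, although it can also stabilise a bound transcript or alter its translation. Its 4 protein isoforms come from alternative splicing of 1 pre-mRNA. A library with less HNRNPD therefore bears on which transcripts stand apart when AUF1 is lowered, and the range of the 7 others shows how far levels varied among transfected cells.

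The AU-rich core searched for was TTATTTATT, a 9-base element found in short-lived mRNAs, on the sense strand of the longest annotated 3′ untranslated region of each gene. The stretches that follow, 5′ to 3′ with the element in capitals, are from ZBTB20, FAM219B, E2F1, POLA2 and FXR1. ZBTB20 and FAM219B are each the single gene with this element among those called 2-fold below and 2-fold above all other libraries. FAM219B was not above them on the second measure described later. The ZBTB20 element lies in a 24504-nt untranslated region of ENST00000357258. The ZBTB20 level in the AUF1 siRNA library, 19.9 FPKM, came from the 565-nt ENST00000479879 instead. For FAM219B, 89.9% of the FPKM there came from assembled transcripts and not from Ensembl ones. Whether the measured RNA of these 2 genes holds the element was not tested. E2F1, POLA2 and FXR1 lay below the others by smaller margins. Positions are GRCh38 and the sequence is that of GENCODE release 29.
ZBTB20, chr3:114328236-114328264, minus strand: aagagtttttTTATTTATTgcctttttga
FAM219B, chr15:74901866-74901894, minus strand: atgttcatatTTATTTATTtgtatttcct
E2F1, chr20:33676155-33676183, minus strand: taatggagcgTTATTTATTtatcgaggcc
POLA2, chr11:65297639-65297667, plus strand: ctattttcttTTATTTATTtattttgttt
FXR1, chr3:180976891-180976919, plus strand: tttgtttggtTTATTTATTaaagtgtaca
A match describes these letters and no binding site.

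Levels are in FPKM, a fragment count normalised to transcript length and to the library's mapped fragments, summed over the transcripts of a gene and scaled between libraries. Relative depth, read as deposited coverage per 1 FPKM, was 0.322 in the AUF1 siRNA library and 0.213 to 0.345 in the others. The read counts behind the values are unknown. A typical gene differed between the AUF1 siRNA library and another library by 0.25 (p40) to 0.35 (control siRNA) on the log2 scale, and by 0.19 to 0.29 in the 21 pairs among the 7 others. Of 14 genes listed as HEK293 markers 8 could be tested, and the summed level of all 14, at 412 FPKM, lay inside the 384 to 477 FPKM of the 7 others, while LHX1 and NEFL were under 1 FPKM in all 8. Assembled transcripts that belonged to no known gene held 14.2% of the length-weighted FPKM, against 5.22% (p45) to 15.8% (p42) elsewhere.

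HNRNPD (ENSG00000138668, hg19 chr4:83273651-83295656) was at its lowest in the AUF1 siRNA library. Its level there was 167 FPKM, with summed deposited bounds of 133 and 201. The controls held 297 FPKM (control siRNA) and 313 FPKM (empty vector). In the overexpression libraries it reached 4888 FPKM (p42), 3699 (p37), 3649 (p45), 3437 (p40) and 3006 (all isoforms). The AUF1 siRNA value lay below all 7, at 56.2% of the control siRNA and 53.4% of the empty vector. The gap, meaning the difference of log2(FPKM + 1) from the nearest of the 7, was -0.83. It fell short of the 2-fold margin used for calls below, and HNRNPD ranked 33 from the lowest gap among 10293 tested genes. An exact two-sided permutation test of the 1 value against the 7 gave p = 0.25, which is the smallest p that 8 libraries can give for 1 gene. Deposited status LOWDATA, which marks a transcript with too little data for a full estimate, covered 76.3% of the HNRNPD FPKM in the AUF1 siRNA library, 74.3% with the control siRNA and 73.1% in the empty vector library.

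Close relatives of HNRNPD lay either below all 7 others or inside their range. HNRNPA1, which packages pre-mRNA and regulates splicing, stood at 249 FPKM against 331 to 483 FPKM, a gap of -0.41. HNRNPA3, also an hnRNP of the A/B family, stood at 114 FPKM against 131 to 193 FPKM. HNRNPDL and HNRNPAB, the nearest paralogs, were at 142 and 193 FPKM and inside the ranges of 89.3 to 150 and 173 to 208 FPKM. HNRNPDL in the AUF1 siRNA library was close to both controls, at 150 and 146 FPKM, and above the 5 overexpression libraries. Of the 7 genes in this list 3, HNRNPD itself included, were below all other libraries and 0 above. Over all tested genes 20.2% were below and 17.3% above by any margin.

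A gene was called when it lay above or below all 7 others by 2-fold or more on the log2(FPKM + 1) scale, where the change of a gene with low FPKM is understated. Of 10293 genes tested, 58 were above (0.563%) and 22 below (0.214%), 0.777% in all. By any margin 1784 genes were above (17.3%) and 2083 below (20.2%), 37.6% in all. The summed deposited bounds lay clear above those of all 7 for 163 genes (1.58%) and clear below for 83 (0.806%). The AUF1 siRNA library had the most genes above all others by 2-fold of the 8 libraries, since the other 7 had 13 (p37) to 25 (p45) when each was compared in the same way. It did not have the most below by 2-fold: the control siRNA library had 67, the empty vector library 34, and the AUF1 siRNA library 22. By any margin the order differed. The control siRNA library then had the most genes above the rest, 1961. The AUF1 siRNA library had the most below, 2083, followed by the control siRNA library with 1782. The balance of above and below by any margin in the AUF1 siRNA library depended on the scaling. With scaling by the 75th percentile 2313 genes were above and 1427 below, and with FPKM as deposited 1467 and 2529. The calls above rested in part on low levels elsewhere, since 13 of the 58 genes averaged under 5 FPKM in the 7 others and passed the filter through the AUF1 siRNA library. In bulk RNA, a larger share of cells expressing a gene and more RNA per cell cannot be told apart.

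Summed FPKM gives a short transcript as much weight as a long one. A second measure, the length-weighted sum, multiplied each FPKM by its transcript's length and so followed the fragments of the gene. On it 31 genes were above by 2-fold (0.308%) and 3 below (0.0298%) of 10064 tested. Both measures called 23 genes above (0.223%) and 2 below (0.0194%). Transcripts shorter than 1000 nt carried at least 50% of the difference from the mean of the 7 in 54 of the 58 genes above and in 21 of the 22 below. The same share was not computed over all tested genes, so these counts do not set the called genes apart from the rest. Of the 22 genes below, 17 were also below all 7 on the length-weighted sum, but 2 by 2-fold.

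**Figure D1:**
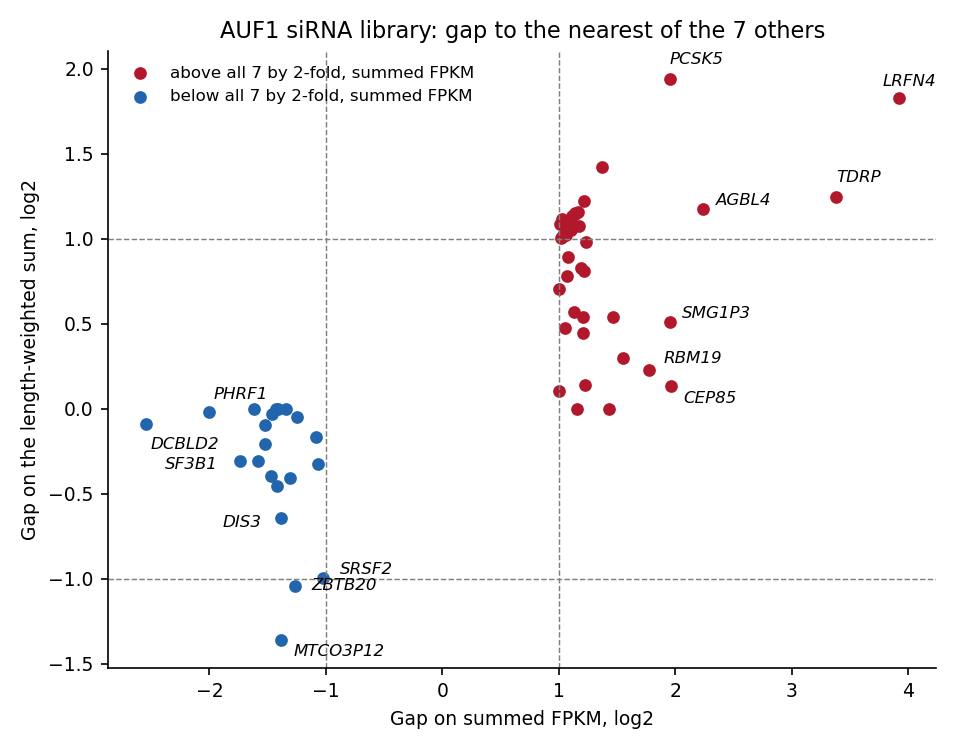
Each point is a gene called on summed FPKM that could also be tested on the length-weighted sum. The x axis is its gap on summed FPKM and the y axis its gap on the length-weighted sum, both in log2, and dashed lines mark 2-fold. Points above all 7 (red) reach 2-fold on both axes in 23 cases, while 2 of the points below (blue) do.

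The gene farthest above was LRFN4, a synaptic adhesion protein (hg19 chromosome 11). It stood at 93.9 FPKM in the AUF1 siRNA library. The control siRNA library held 3.45 FPKM, the empty vector 4.84, p37 5.27, p40 3.98, p42 4.48, p45 3.60 and all isoforms 4.57. The mean of the 7 was 4.31 FPKM, under the filter of 5 FPKM, so LRFN4 was tested only through its level here. The gap was 3.92 on summed FPKM and 1.82 on the length-weighted sum. A single 328-nt assembled transcript held 90.8 FPKM of it. Assembled transcripts are named separately in each library, so this one cannot be matched to another library by name. Of the gene's FPKM here 96.7% came from assembled transcripts. TDRP, a nuclear protein of the testis, had the same form, with 115.6 FPKM against 6.78 to 10.2 FPKM and a gap of 3.38. Its level came from a 488-nt assembled transcript at 113 FPKM, and on Ensembl transcripts alone TDRP lay below all 7, with a gap of -1.24.

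PCSK5, a proprotein convertase that cleaves secreted precursors, was above on a longer, annotated transcript. It stood at 115.6 FPKM in the AUF1 siRNA library. The highest of the others were p45 at 29.1 FPKM, the empty vector at 28.8, p40 at 24.5 and p37 at 21.1, followed by p42 at 15.4, all isoforms at 14.9 and the control siRNA at 14.03. The gap was 1.95 on summed FPKM and 1.94 on the length-weighted sum. The level came from ENST00000396108, of 2840 nt, whose status in this library was LOWDATA. AGBL4, a carboxypeptidase that trims polyglutamate from tubulin, stood at 58.3 FPKM against 4.15 to 11.6 FPKM, with gaps of 2.24 and 1.17. A 320-nt transcript listed at 0 in the 7 others gave 38.0 FPKM of this, and the 1604-nt ENST00000411952 was also highest here, at 15.9 FPKM.

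The other genes among the 12 farthest above on both measures had gaps of 1.10 to 1.37 on summed FPKM. CSF2RA, the alpha subunit of the GM-CSF receptor, stood at 67.3 FPKM against 15.3 to 30.6 FPKM. It lies in the pseudoautosomal region, so its reads can be placed on X or Y. GALNT9, a glycosyltransferase that starts O-linked glycans, stood at 38.1 FPKM, against 8.73 to 16.3 FPKM in 6 libraries and 2.41 FPKM in the control siRNA library, but did not keep the length-weighted call when overlapping assembled transcripts were counted against it. CFAP77 and C9orf92 stood at 15.8 and 16.6 FPKM, against highest values elsewhere of 6.83 and 5.80 FPKM, and also passed the filter only through this library. The remaining 4 were the noncoding AC018742.1, AC055854.1 and AC007952.8 and the unclassified ENSG00000240269. AC018742.1 stood at 35.9 FPKM against 3.52 to 14.9 FPKM, and AC055854.1 at 35.4 against 12.3 to 15.3 FPKM. Whether counting used strand was not given, and a noncoding gene cannot be told apart from an overlapping gene on the opposite strand.

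Among the 58 genes above, the next highest library was p45 for 25 genes and p40 for 11, against 3 to 6 genes for each of the 5 others. The same 2 libraries came next most often among the 1784 genes above by any margin, p45 for 475 and p40 for 324, against 157 to 269 for each of the rest. Without the p45 library, 123 genes were above by 2-fold. The control siRNA library was the lowest of all for some of the 58, such as GALNT9, AGBL4, PCSK5 and RBFOX1. For 4 others, CSF2RA and AC055854.1 among them, it was the next highest. How many of the 58 were lowest in the control siRNA library was not counted.

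Below all 7 on both measures were MTCO3P12 and ZBTB20. MTCO3P12, a nuclear pseudogene of the mitochondrial COX3 gene on chromosome 1, stood at 787 FPKM. The 7 others ran from 2054 FPKM with the empty vector to 3366 FPKM with the control siRNA, with p37 at 2673, p40 at 2455, p42 at 2501, p45 at 3024 and all isoforms at 3080 FPKM. The gaps of MTCO3P12 were -1.38 and -1.36. Pseudogenes of this kind share sequence with the mitochondrial genome, for which the deposited tables listed 0 transcripts, so reads of either origin may be counted here. Other mitochondrial pseudogenes did not follow: MTCO2P12 stood at 2323 FPKM inside 2108 to 3632, and MTCO1P12 at 4166 FPKM, just under 4238 to 6186. ZBTB20, a zinc finger repressor of transcription, stood at 19.9 FPKM. The empty vector library held 49.3 FPKM, and the rest ran from 106 FPKM with the control siRNA to 166 FPKM with p45. The gaps were -1.27 and -1.04. The 475-nt ENST00000492665 was listed at 0 in the AUF1 siRNA and p45 libraries and at 29.4 to 94.8 FPKM in the 6 others, and with transcripts of all lengths included ZBTB20 lay inside the range. On Ensembl transcripts alone its gap was -0.59, short of 2-fold.

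**Figure D2:**
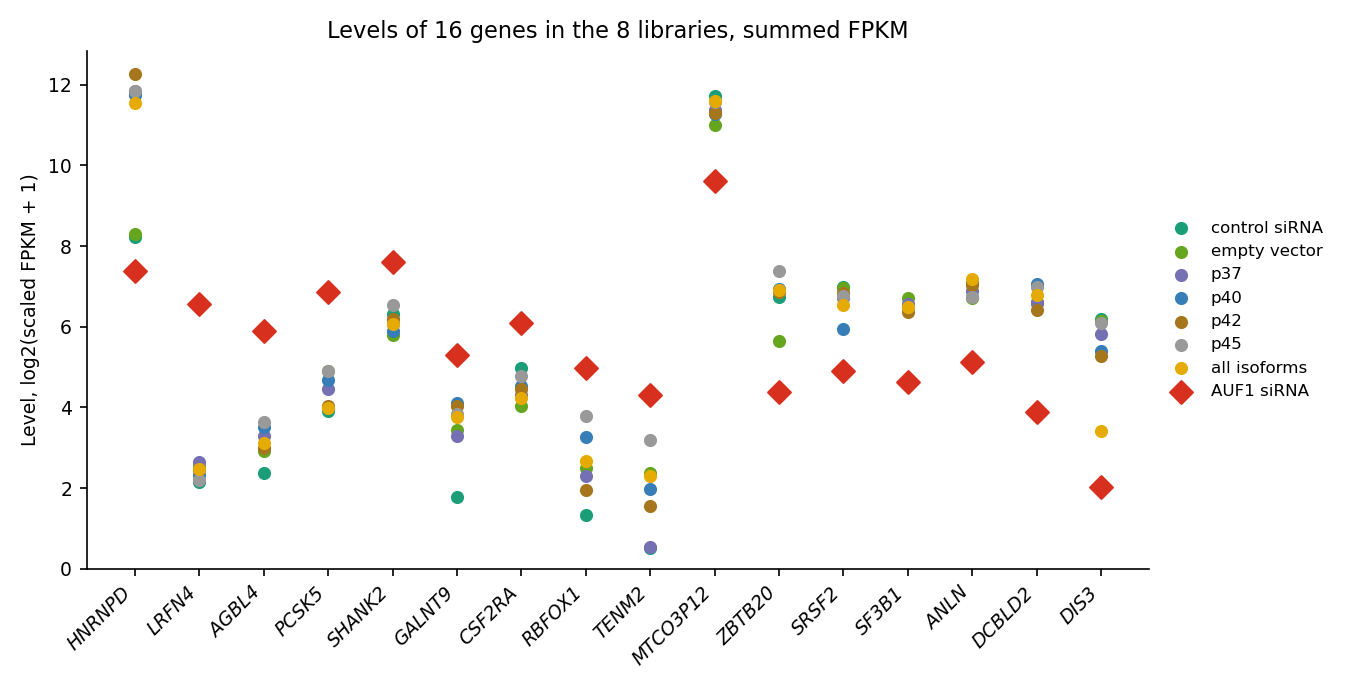
Levels of 16 genes on the log2(scaled FPKM + 1) scale, with a red diamond for the AUF1 siRNA library and a circle for each of the 7 others. The diamond stands above all circles for LRFN4 to TENM2 and below all circles for HNRNPD and for MTCO3P12 to DIS3.

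The largest gaps below on summed FPKM alone were those of DCBLD2, PHRF1 and SF3B1. SF3B1, the core subunit of the splicing factor that recognises the branch point, stood at 23.8 FPKM against 81.5 to 103 FPKM, a gap of -1.73. Its full-length ENST00000335508, of 4336 nt, stood at 23.8 FPKM and inside the 20.2 to 26.9 FPKM of the 7 others. The difference was the 600-nt ENST00000409915, listed at 0 here and at 60.1 to 76.4 FPKM elsewhere, and on the length-weighted sum the SF3B1 gap was -0.31. DCBLD2, a neuropilin-like membrane protein, had a gap of -2.54 and PHRF1, a ubiquitin ligase, was at 3.53 FPKM against 17.2 to 32.5 FPKM. Their length-weighted gaps were -0.09 and -0.02, and each lacked a short transcript, of 418 nt and 403 nt. The reverse held for CEP85, SMG1P3 and RBM19, which were above by 1.96, 1.95 and 1.78. The 589-nt Ensembl transcript of SMG1P3 was above 0 in the AUF1 siRNA library alone. In CEP85 and RBM19 assembled transcripts of 363 and 864 nt held 30.7 and 28.3 FPKM. Assembled transcripts are named separately in each library, so presence in 1 library alone is no added result for them. The length-weighted gaps of CEP85, SMG1P3 and RBM19 were 0.13, 0.51 and 0.23. SMG1P3 is a pseudogene of SMG1 and shares reads with its family, so its value is uncertain.

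Gene lists are described by how many of their tested members lay outside the range of the 7 by any margin, to be read against 17.3% above and 20.2% below for all genes, and by the median log2 difference from the mean of the 7, which was -0.03 for all genes. These background values shift with the scaling. With the 75th percentile they were 22.4% above, 13.8% below and a median of 0.05. With FPKM as deposited they were 14.2%, 24.6% and -0.09. The list values below use the main scaling. The lists were drawn up with results of these data known. Names beyond the members called by 2-fold and the 2 farthest of a list were chosen after their values were seen.

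Splicing factors were lower more often than genes at large, and RNA decay factors were near the background. Of 42 hnRNP and SR splicing factors 17 were below all 7 and 1 above, with a median of -0.20. SRSF2, an SR protein that promotes exon inclusion, was below on either measure. It stood at 29.1 FPKM, against 60.2 (p40), 92.0 (all isoforms), 103 (p37), 107 (p45), 114 (p42), 123 (empty vector) and 126 FPKM (control siRNA). Its gap was -1.03, and on the length-weighted sum it fell just short of 2-fold. SF3B3, a partner of SF3B1, stood at 98.3 FPKM against 126 to 157 FPKM. DIS3, the exosome ribonuclease that degrades RNA from its 3′ end, was the called gene of the list of 17 exosome genes, with 4 below and 1 above. It stood at 3.09 FPKM against 9.70 FPKM with all isoforms and 37.4 to 72.5 FPKM in the rest. The 481-nt ENST00000469339 gave 33.2 to 64.2 FPKM in 6 libraries and was listed at 0 in the AUF1 siRNA and all-isoform libraries, and the length-weighted gap was -0.64. Of 41 deadenylation, decapping and nonsense-mediated decay factors 10 were below and 3 above.

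Chaperones were the list with the largest share below. Of 24 cytosolic heat shock proteins and subunits of TRiC, the ring that folds actin and tubulin, 14 were below all 7 and 1 above, with a median of -0.31 on summed FPKM and -0.29 on the length-weighted sum. The 7 others had list medians of -0.04 to 0.20 when each was compared with its own other 7. HSPH1, a nucleotide exchange factor of HSP70, stood at 17.6 FPKM against 23.1 to 34.6 FPKM, a gap of -0.38. DNAJA1, an HSP40 co-chaperone, stood at 54.2 FPKM against 70.7 to 110 FPKM. The TRiC subunit CCT7 stood at 74.8 FPKM against 96.9 to 120.2 FPKM, and CCT6A at 223 against 289.7 to 368 FPKM. HSPA8, the constitutive HSC70, was inside the range at 586 FPKM, and HSF1, the heat shock transcription factor, was the gene above, at 27.8 FPKM against 15.1 to 26.1. No member reached 2-fold.

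Translation factors, nuclear transport receptors and mitotic genes leaned the same way by small margins. Of 44 translation factors 23 were below and 1 above, with a median of -0.20. The initiation factors EIF5 and EIF5B stood at 10.6 and 44.4 FPKM against 13.8 to 26.9 and 56.3 to 68.7 FPKM. Of 25 importins, exportins and RAN cycle genes 13 were below and 3 above. IPO9, which imports histones and ribosomal proteins, stood at 12.5 FPKM, close to 18.8 FPKM with p40 and far from the 100.3 to 181 FPKM of the 6 others. On the length-weighted sum the contrast was smaller, at 42.5 against 60.8 to 82.5. The IPO9 difference from the mean of the 7 was -3.01 on summed FPKM and -0.76 on that measure. IPO8, another importin, was above at 20.1 FPKM against 7.96 to 10.3 FPKM, a gap of 0.90, but inside the range on the length-weighted sum. Of 42 mitotic genes 21 were below and 2 above, with a median of -0.21. ANLN, the actin-binding anillin of the cleavage furrow, stood at 33.9 FPKM against 104 to 145 FPKM, with gaps of -1.59 and -0.31. TPX2, a spindle assembly factor, stood at 18.96 FPKM against 24.9 to 35.5 FPKM. MAD1L1, a spindle checkpoint protein, was far above its list, at 331 FPKM against 151 to 212 FPKM. Cytosolic ribosomal proteins did not share this lean: 14 of 75 were below and 6 above, with a median of -0.02. In each of these lists, splicing factors and chaperones included, the control siRNA library had a positive median, 0.09 to 0.32.

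Genes of DNA repair showed smaller shares below on summed FPKM. Of 33 genes of the damage response and of break repair 12 were below and 2 above. On the length-weighted sum 16 of 33 were below and 1 above. That share was not smaller than those of mitotic genes (18 of 42) or translation factors (20 of 44). Over all genes 21.8% were below on that measure. ATM, the kinase that signals double-strand breaks, stood at 2.64 FPKM against 4.07 to 7.56 FPKM, a gap of -0.48. EXO1, a resecting exonuclease, stood at 13.4 FPKM against 19.7 to 59.5 FPKM. Of 40 replication genes 9 were below and 3 above, and POLA2 stood at 23.2 FPKM against 33.0 to 53.1 FPKM but inside the range on the length-weighted sum. For 9 telomerase and shelterin genes 0 lay outside the range in either direction.

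Among 23 tested mRNAs listed as known AUF1 targets 6 were below all 7 and 2 above, with a median of -0.05. ODC1, the rate-limiting enzyme of polyamine synthesis, had the largest gap, at 218 FPKM against 302 to 349 FPKM. It was -0.47 on summed FPKM and -0.50 on the length-weighted sum. E2F1, a cell cycle transcription factor, stood at 3.62 FPKM against 4.80 to 6.70 FPKM. CDKN1B and CDKN2A, inhibitors of the cell cycle, were the members above, by 0.10 and 0.05. JUN, CDKN1A, BCL2 and VEGFA lay inside the range on summed FPKM. Of 18 other proteins that bind AU-rich elements 5 were below and 0 above, and FXR1 stood at 82.4 FPKM against 96.0 to 142 FPKM.

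Synaptic and neuronal membrane genes went the opposite way. Of 80 listed genes 27 could be tested, and 15 of these were above all 7 and 2 below, with a median of 0.59. On the length-weighted sum 14 of 24 were above, with a median of 0.29. SHANK2, a scaffold of the postsynaptic density, stood at 193 FPKM. The next was p45 at 91.6 FPKM, then the control siRNA at 78.6, p42 at 71.8, all isoforms at 66.3, p37 at 66.2, p40 at 58.9 and the empty vector at 54.6 FPKM. The SHANK2 gaps were 1.07 and 1.02. RBFOX1, a neuronal splicing regulator, stood at 30.8 FPKM against 1.505 to 12.9 FPKM, all of it here from assembled transcripts. TENM2, a teneurin adhesion protein, stood at 18.9 FPKM against 0.43 to 8.16 FPKM. Like LRFN4 it passed the filter only through the AUF1 siRNA library, and with a mean of 5 FPKM or more required in the 7 others the list median was 0.30 over 25 genes. DLGAP2, NTM and GRIK4 stood at 122, 139 and 194 FPKM against highest values elsewhere of 80.7, 106 and 143 FPKM. CNTN4 and GRM8 were the members below, and SYT1, NLGN1 and LSAMP were inside the range. Most listed genes were not tested. The p45 library had the next highest list median, 0.25, and the control siRNA library the lowest, -0.43.

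Markers of other cell types were examined alongside. Of 5 tested fibroblast markers 3 were above all 7 and 0 below, and the summed level of all 18 listed fibroblast markers, tested or not, was 121 FPKM against 69.0 to 90.7 FPKM. COL5A1, a fibrillar collagen, stood at 15.6 FPKM against 5.07 to 8.28 FPKM, and ACTA2, smooth muscle actin, at 35.3 against 15.6 to 26.7 FPKM. FN1 was inside the range at 16.6 FPKM, and the fibroblast markers COL1A2, COL6A3, DCN, LUM, PDGFRA and POSTN were under 1 FPKM in all 8 libraries. Of 4 tested epithelial markers known from HeLa cells 1 was above, CDKN2A, and the summed level of all 14 listed was 362 FPKM against 173 to 338 FPKM, with KRT5, KRT6A and AREG under 1 FPKM in all 8. Of 8 blood markers 0 could be tested, and the 8 had a summed level of 8.43 FPKM against 3.01 to 8.12 FPKM. PAX2, a kidney transcription factor among the HEK293 markers, stood at 17.2 FPKM against 3.92 to 10.1 FPKM. Of the 8 tested HEK293 markers it was the 1 above all 7, and 2 were below, with a median of -0.05. INA, which was below, stood at 3.46 FPKM against 4.23 to 6.89 FPKM. The part of these levels in the lists was not tested.

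GC content set the genes above and below apart. The median GC content of the longest annotated transcript was 47.0% over all tested genes with a sequence, 55.3% in the 58 genes above by 2-fold and 43.2% in the 22 below. In the quartile with the lowest GC content 6.23% of genes were above all 7 and 27.7% below. In the quartile with the highest, 33.7% were above and 7.38% below. The median log2 difference between the AUF1 siRNA library and the mean of the 7 rose from -0.13 in the lowest quartile to 0.19 in the highest, a span of 0.32. The same span was -0.24 in the empty vector library, -0.12 in p37 and -0.04 to 0.07 in the 5 others. The span was thus widest in the AUF1 siRNA library, and the empty vector had the widest in the other direction.

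**Figure D3:**
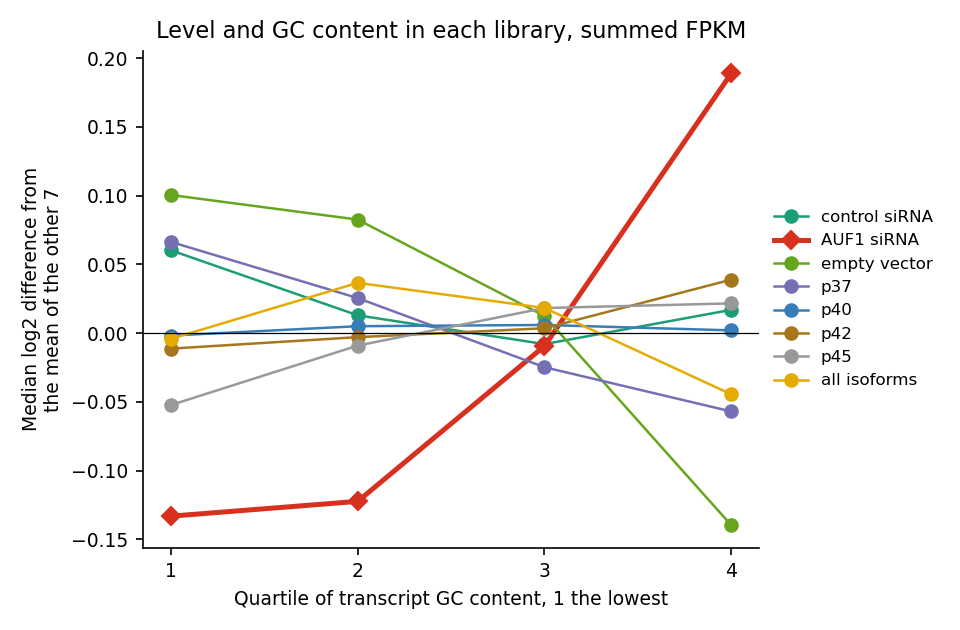
Lines give, for each library, the median log2 difference from the mean of the other 7 (y axis) in quartiles of transcript GC content (x axis). The AUF1 siRNA line rises from -0.13 to 0.19, the empty vector line falls from 0.10 to -0.14, and the others stay between -0.06 and 0.07.

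Levels were also centred within 20 bins of GC content in every library, a step added after seeing the data. With that, 47 genes were above by 2-fold (0.466%) and 20 below (0.198%), and 17.7% and 16.3% of genes were above and below by any margin. On the length-weighted sum so centred, 21 were above (0.221%) and 3 below (0.0316%), and 17.4% and 16.2% by any margin. Chaperones kept a median of -0.27, with 14 of 24 below and 1 above. Translation factors moved to -0.15 with 17 of 44 below, importins and exportins to -0.20 with 11 of 25, mitotic genes to -0.14 with 15 of 42, and splicing factors to -0.15 with 15 of 42. Genes of the damage response moved to -0.11 with 6 of 33 below, near the background share on summed FPKM. Synaptic genes stood at 0.76, with 16 of 27 above. These include members, such as TENM2, that passed the filter only through the AUF1 siRNA library. A centred median without them was not computed. With the length-weighted sum centred in the same way the medians were nearer 0: -0.21 for chaperones, -0.07 for translation factors, -0.09 for importins and exportins, -0.11 for mitotic genes, -0.10 for splicing factors and 0.38 for synaptic genes. On that measure 13 of 24 chaperones, 19 of 44 translation factors, 9 of 25 importins and exportins and 16 of 42 mitotic genes were below. So were 15 of 42 splicing factors and 9 of 32 damage response genes, the latter with a median of -0.09. Over all genes 16.2% were below on that measure. Of 22 synaptic genes 13 were above. The gaps of LRFN4, AGBL4, PCSK5 and SHANK2 were 3.59, 2.29, 1.996 and 1.08, and those of MTCO3P12 and ZBTB20 -1.32 and -1.06. On the length-weighted sum so centred, ZBTB20 at -0.84 and GALNT9 at 0.92 no longer reached 2-fold. The SRSF2 gap was -0.91 and that of HNRNPD -0.64.

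Other properties differed less evenly. Long intergenic noncoding RNAs were above in 124 of 292 cases (42.5%) and below in 26, with a median of 0.36, against -0.18 in the control siRNA library and 0.18 in p45, the lowest and highest of the others. Antisense RNAs were above in 71 of 331 cases. The median genomic span was 96.1 kb for the 58 genes above, 36.6 kb for the 22 below and 41.8 kb for all. By chromosome, 37.7% of tested genes on chromosome 22 and 28.7% on chromosome 19 were above all 7, while on chromosome 18, 8.33% were above and 36.5% below. The part of GC content in these differences by gene type, span and chromosome was not tested. The TTATTTATT element was in the 3′ untranslated region of 9.81% of 8715 genes. It was present in 1 of 44 such genes above by 2-fold (2.27%) and 1 of 21 below (4.76%). FAM219B, the gene above, stood at 29.9 FPKM against 6.63 to 10.5 FPKM but lay inside the range on the length-weighted sum. Among genes outside by any margin on both measures it was in 6.34% of those above and 12.2% of those below. Those sets differ in GC content, 54.9% and 43.5%, and in median length of this region, 1315 and 1671 nt, and the part of either in the motif shares was not tested. Genes with the element were thus not more frequent among those higher in the AUF1 siRNA library.

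Genes listed at 0 in some library were left out of the calls for the AUF1 siRNA library. It was alone at 0 for 111 genes, fewer than any other library (146 to 533), and alone above 0 for 629, more than any other (188 to 316). Most of the latter were low, with a median of 0.34 FPKM. At 5 FPKM or more, 23 genes were above 0 here alone, against 6 (p42) to 25 (p45) in the others. Genes at 0 in 1 library alone, with a mean of 5 FPKM or more elsewhere, numbered 27 here. The others had 23 (p37) to 32 (control siRNA). An exact 0 can be a failed estimate. MDH1, the cytosolic malate dehydrogenase, was listed at 0 here and at 53.7 to 69.5 FPKM in the 7 others, and NUDT5, TMEM14C and CBR4 were likewise listed at 0. AHRR, the repressor of the aryl hydrocarbon receptor, was listed at 52.3 FPKM here and at 0 in the others, and CAMK1 at 28.7 FPKM. These names were chosen after their values were seen.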

How the data were processed

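RNA was extracted with Trizol, 100 ng was amplified by single-primer isothermal amplification, and libraries had 18 PCR cycles, per the labels' protocols. The authors deposited FPKM per transcript with lower and upper bounds, a status and a coverage signal, per the file headers. The build hg19 and the tools Cuffdiff, Cufflinks 2.0.2 and TopHat2 2.0.6 are named, without roles, in the submitters' processing notes. No annotation release was given in these sources.

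From these, FPKM of transcripts of 300 nt or more was summed per gene. Ensembl transcripts were placed with genes through GENCODE 29 or the deposited clusters. Assembled transcripts were placed where their cluster held 1 gene or their position and length equalled those of an Ensembl transcript. Sums were divided by median-of-ratios factors (0.932 to 1.06, 13647 genes). A gene was tested with a mean of 5 FPKM or more over the 8 libraries, above 0 in each, with no failed and no unlisted transcript. The pseudocount was 1 FPKM. The length-weighted sum was FPKM times length over the gene's mean transcript length. Gene coordinates are hg19, and motif positions GRCh38. The range calls were tested on simulated data. Computation used Python 3.11.15, numpy 2.4.6, pandas 2.3.3, scipy 1.17.1 and matplotlib 3.10.9.

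Named genes were HNRNPD, the 12 farthest above and below on both measures (below, 2 qualified), the 3 with the largest gap each way on summed FPKM alone, every list member called, and the 2 farthest members of other lists. The members and lists were chosen with earlier results of these data known. Alternatives varied the measure, scaling, pseudocount, filters, status, comparison libraries and margin.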

Additional observations from a re-analysis of the deposited data

How the results depend on the processing

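No paired analysis was possible because each group held 1 library. With 58 genes above and 22 below by 2-fold, 72.5% of called genes were above. Other counts, given as above and below, were 31 and 3 on the length-weighted sum (91.2% above), 23 and 13 with a pseudocount of 5, 151 without a filter on low values (85.8%), 11 with a mean of 20 or more (42.3%), 48 below with genes listed at 0 included (59.3%), 56 below with status OK only (51.7%), 494 and 110 against the controls only, 36 below against the overexpression libraries only, 163 and 83 where summed bounds do not overlap, 282 and 59 at 1.5-fold, and 1784 and 2083 at any margin. By any margin, 5181 were above without the filter, 581 above and 943 below with a mean of 20 or more, and 3259 above and 4122 below against the controls only. Alternatives added after seeing the data gave 61 below on Ensembl transcripts only (39.6% above), 23 above on these with the length-weighted sum (45.1%), 26 and 2 on the length-weighted sum with overlapping assembled transcripts counted against the call, and 21 and 3 on the length-weighted sum centred in GC bins (87.5%). Leaving out 1 library gave 63 to 123 genes above, the latter without p45 (82.6%), and 22 to 30 below. The HNRNPD gap was -4.16 against the overexpression libraries only, -0.53 on the length-weighted sum centred in GC bins, and -0.90 to -0.83 with 1 library left out. The gaps of ZBTB20 with all transcript lengths, of DCBLD2 with status OK only and of CEP85 on Ensembl transcripts only, on either measure, were 0. On Ensembl transcripts only, TDRP was at -1.24 (length-weighted -1.23) and RBM19 at -0.24 (length-weighted -0.37). Where neither the alternative's construction nor a value above shows the cause, the cause was not tested. Read numbers are unknown, and the deposited bounds cover estimation within a library only.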
